A study of Mus musculus with 305 samples.

Results

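The circadian clock of mammalian cells is a feedback loop of transcription factors, and 10 of its genes were followed here through the reward circuitry of the mouse: Arntl, Clock, Per1, Per2, Per3, Cry1, Nr1d1, Dbp, Ciart and Bhlhe40. They were taken from a count table of 52636 genes by their Ensembl identifiers and gene symbols in GENCODE M21, and all 10 were found, each in 1 row. Bulk RNA-seq of total RNA was made in 51 wild-type mice, all male, after 15 d of intravenous self-administration of saline or of heroin, an opioid. The 6 regions sampled are dorsal striatum (dStri), NAc (read here as nucleus accumbens), prefrontal cortex (PFC), BLA (basolateral amygdala), ventral hippocampus (vHPC) and VTA (ventral tegmental area). Groups S24 (saline, 8 mice) and H24 (heroin, 11 mice) were sampled at 24 h of withdrawal, with no challenge or test named. The remaining 32 mice, 8 per group, were kept in withdrawal for 30 d, given a challenge and tested for drug seeking for 2 h. Their labels give first the drug self-administered and then the drug of the challenge, S for saline and H for heroin: SS, SH, HS and HH. Each mouse gave 1 library per region, except that no BLA library of S24 mouse 37 was analysed here, and whole-region RNA was sequenced, so fewer cells of a type and less RNA per cell cannot be told apart. The clock time at which tissue was taken, on which the level of most of these genes depends, is not given in the sources used here.

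In this loop ARNTL (also called BMAL1) and CLOCK form the activator, which binds E-box elements in DNA and switches on the Per and Cry genes, Nr1d1, Dbp and Ciart. The PER and CRY proteins and CIART feed back to silence the activator. NR1D1 (REV-ERB alpha) represses Arntl, which therefore peaks at nearly the opposite time of day from Dbp and Nr1d1. DBP activates output genes through D-box elements, and BHLHE40 (DEC1) competes for E-boxes. Per1, Per2 and Bhlhe40 are also induced directly by neuronal activity, and Per1 by glucocorticoids.

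Promoter sequences show which of these elements lie close to each start site, and are printed for the members whose window held an E-box or a D-box. RefSeq promoter windows of GRCm38.p6, most of each lying before the start, were at hand for 8 of the 10 members, in 12 windows; the entries for Per2 and Bhlhe40 were missing. The searched motifs were the E-box CACGTG, the D-box TTATGTAA, AGGTCA and the cAMP response element TGACGTCA, on both strands, and none of the matches overlapped. AGGTCA is only a part of a REV-ERB/ROR element, and the rest of that element was not searched. Capitals mark the matches, and each sequence runs 5′ to 3′ on the strand of its gene.
Ciart promoter, chr3:95882179-95882478, minus strand: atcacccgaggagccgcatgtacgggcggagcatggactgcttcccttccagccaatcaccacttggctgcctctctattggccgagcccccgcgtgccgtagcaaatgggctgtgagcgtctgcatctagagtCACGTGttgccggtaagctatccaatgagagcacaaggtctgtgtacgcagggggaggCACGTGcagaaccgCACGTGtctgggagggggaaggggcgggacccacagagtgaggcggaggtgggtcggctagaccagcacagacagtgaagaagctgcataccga
Per1 promoter, chr11:69098699-69098998, plus strand: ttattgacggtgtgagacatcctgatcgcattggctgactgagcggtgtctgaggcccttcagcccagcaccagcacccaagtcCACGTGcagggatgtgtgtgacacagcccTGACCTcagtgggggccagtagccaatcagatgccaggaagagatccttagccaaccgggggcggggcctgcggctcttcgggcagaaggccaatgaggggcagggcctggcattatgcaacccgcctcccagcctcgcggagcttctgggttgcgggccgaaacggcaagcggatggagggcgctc
Cry1 promoter, chr10:85185005-85185304, minus strand: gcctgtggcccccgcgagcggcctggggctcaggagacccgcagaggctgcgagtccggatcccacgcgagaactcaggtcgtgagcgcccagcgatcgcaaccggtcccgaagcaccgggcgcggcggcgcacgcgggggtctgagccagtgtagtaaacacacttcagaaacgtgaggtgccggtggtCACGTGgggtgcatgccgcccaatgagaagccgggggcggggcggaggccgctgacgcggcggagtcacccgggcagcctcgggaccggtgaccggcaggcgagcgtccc
Per3 promoter, chr4:151044616-151044915, minus strand: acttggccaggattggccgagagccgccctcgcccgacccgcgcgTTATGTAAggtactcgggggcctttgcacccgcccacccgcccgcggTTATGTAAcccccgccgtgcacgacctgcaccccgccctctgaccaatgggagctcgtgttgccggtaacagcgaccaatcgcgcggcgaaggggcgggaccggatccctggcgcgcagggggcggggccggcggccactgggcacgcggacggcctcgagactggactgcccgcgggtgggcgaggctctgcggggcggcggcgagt
The Ciart window held 3 E-boxes, the nearest at 58 and 44 bases before the start site. An E-box lay 166 bases before the Per1 start, followed by AGGTCA, read as TGACCT on this strand. Another E-box lay 60 bases before the Cry1 start. Per3 had 2 D-boxes, at 205 and 158 bases before its start. Of 32851 windows of all genes, 7.15% held the E-box, 0.938% the D-box, 16.3% AGGTCA and 1.79% the cAMP response element. The windows of Dbp and Nr1d1 held none of the 4 motifs, and no member window held the cAMP response element. Arntl and Clock each had AGGTCA in 1 of their windows, 31 bases after the start in Arntl and before it in Clock. A match describes these letters only.

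One VTA library of HH mouse 7, with 0.890 M counts, was left out, and the other libraries, 5 to 6 per mouse, held 19.3 to 61.4 M counts (median 31.5 M). Of these, 5 stood apart from the others of their region by rank correlation: dStri of HS mouse 11, vHPC of HH mouse 18, and BLA of SS mouse 6 and of H24 mice 39 and 42. Without them the members called for differences between mice were the same 3, and none of them is a PFC library. VTA and dStri carried their defining transcripts. The 5 dopamine neuron markers summed to a median of 2906 CPM (counts scaled to library size) in VTA against 28.4 in dStri. The 6 striatal projection neuron markers summed to 4750 CPM in dStri against 131.02 in VTA. Dissections varied, since the dopamine markers fell as low as 193 CPM in 1 VTA library. Markers of excitatory neurons of cortex and hippocampus reached 567.6 CPM in NAc (median 10.1) and 488.6 in dStri (median 16.0). Those of choroid plexus reached 14785.6 CPM in vHPC (median 65.3) and 10396.5 in BLA (median 75.3). The part of this variation in the region differences of the clock genes was not tested. Exons of 4 members overlap a gene on the opposite strand in the annotation (Dbp and Sphk2 over 539 bases, the longest, Nr1d1 and Thra, Bhlhe40 and 0610040F04Rik, and Arntl and Gm45355 over 33, the shortest). The library kit keeps the strand, but the strand setting of the counting is not given in the sources used here.

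The clock genes were unevenly spread over the regions, with dStri first and VTA last for Arntl, Per1, Per2 and Per3. Dorsal striatum had the highest mean of Arntl, Per1, Per2, Per3, Cry1, Dbp and Ciart. VTA was lower than the mean of the other 5 regions for all 10 members. Prefrontal cortex led for Clock, Nr1d1 and Bhlhe40, vHPC was lowest for Cry1, Dbp and Ciart, and dStri was lowest for Bhlhe40.

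Among the activators, Arntl (ENSMUSG00000055116, chromosome 7, 113207465 to 113314126, plus strand, GRCm38) averaged 54.7 CPM in dStri over 51 libraries, with a lowest of 31.1 and a highest of 81.2. In VTA it averaged 16.0 CPM over 50 libraries, between 12.4 and 20.0, so that no VTA library reached the lowest of dStri. The log2 difference from the mean of the other 5 regions was 0.85 ± 0.0263 (SE) in dStri and -1.26 ± 0.0318 in VTA. Clock (ENSMUSG00000029238, chromosome 5, 76209868 to 76304792, minus strand), its partner, was nearly level, from 126.2 CPM in VTA to 151.7 in PFC, a 1.20-fold span, and every pair of neighbouring regions lay within 1 SD.

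Of the repressor genes, Per2 and Cry1 spanned more than the 3.41-fold of Arntl, and Per1, Ciart and Per3 less. Per2 (ENSMUSG00000055866, chromosome 1, 91415982 to 91459324, minus strand) spanned 4.25-fold, from 28.1 CPM in VTA to 119.5 in dStri, and Per1 (ENSMUSG00000020893, chromosome 11, 69095217 to 69109960, plus strand) 3.31-fold, from 40.2 to 133.1 CPM. Both followed the order dStri, NAc, PFC, BLA, vHPC, VTA. Per3 (ENSMUSG00000028957, chromosome 4, 151003652 to 151044665, minus strand) kept that order over 1.94-fold, with vHPC and VTA at 36.3 and 36.2 CPM. Cry1 (ENSMUSG00000020038, chromosome 10, 85131700 to 85185064, minus strand) separated the 2 striatal regions, at 55.9 CPM in dStri and 39.6 in NAc, from the other 4, which had means between 15.6 and 23.7. Ciart (ENSMUSG00000038550, chromosome 3, 95878503 to 95882251, minus strand), the least abundant member in CPM, ran from 8.43 in vHPC to 25.7 in dStri.

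Nr1d1 (ENSMUSG00000020889, chromosome 11, 98767932 to 98775333, minus strand), the repressor of Arntl, averaged 35.0 CPM in PFC, 34.0 in dStri, 33.0 in BLA, 29.0 in NAc and 27.4 in vHPC, neighbours that lay within 1 SD, and 14.6 in VTA. Dbp (ENSMUSG00000059824, chromosome 7, 45705088 to 45710203, plus strand), the output factor, was 4.02-fold higher in dStri (110 CPM) than in vHPC (27.5 CPM). Bhlhe40 (ENSMUSG00000030103, chromosome 6, 108660629 to 108666925, plus strand) had another order: 171 CPM in PFC, with a lowest library of 118.2, against means from 51.8 in dStri to 85.4 in BLA. Per kilobase of exon, Dbp was the most abundant, at 19.5 CPM per kb averaged over regions, followed by Bhlhe40 at 17.4 and Per1 at 15.3. Arntl was lowest at 4.70, and Clock, first in CPM, came to 10.4 because of its long transcript.

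**Figure D1:**
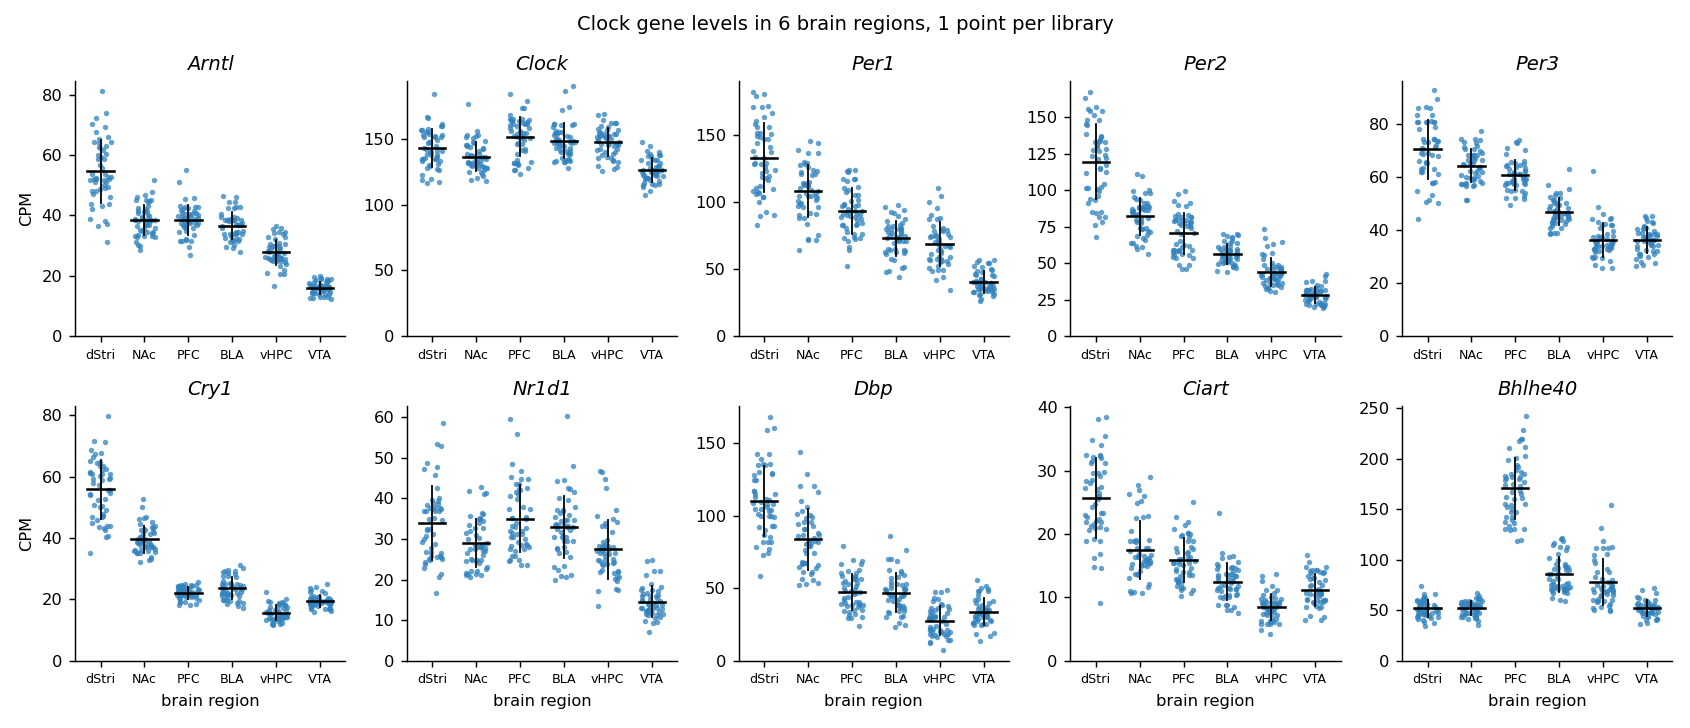
CPM of the 10 clock genes (vertical axes, each from 0) in 6 brain regions (horizontal axes), 1 point per library; bars give the mean and vertical lines the SD. Dorsal striatum is highest for 7 genes, PFC stands out for Bhlhe40 at a mean of 171 CPM, Clock is nearly level and VTA lies below the mean of the other regions for each gene.

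By edgeR's quasi-likelihood test over all genes, with an adjusted p under 0.05 as the call, 57 of the 60 member-region differences passed. Such calls were the rule for any gene in these regions. In VTA 10 members were lower and 0 higher, where 83.6% of all genes were called. In dStri 8 were higher and 1 lower (76% of all genes called), in PFC 8 and 2 (71.8%), in NAc 7 and 2 (73.7%), in BLA 4 and 6 (65.1%) and in vHPC 2 and 7 (69.5%). The differences that did not pass were Clock in dStri and Nr1d1 in NAc and vHPC. With the mouse as a replicate block, Bhlhe40 in vHPC no longer passed (adjusted p = 0.0304 in edgeR without the block and 0.0690 with it).

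Within a treatment group, mice differed in Dbp and Ciart across the sampled regions together. When the deviation of each library from the mean of its region and group was followed over the regions of 1 mouse, a mouse with high Ciart in 1 region tended to have high Ciart in the others, and so for Dbp. For Clock, Per1 and Cry1 the regions of a mouse shared little, with intraclass correlations (the share of variance that the regions of 1 mouse have in common) of 0.0470, 0.0338 and -0.0482. In edgeR, a test of the mouse terms within groups (45 degrees of freedom, region and mouse in the model) called 3 of the 10 members against 7.09% of 18576 genes (1317). Ciart had F = 6.34 and an adjusted p of 4.26e-20, Dbp F = 3.30 and 1.04e-07, and Arntl F = 1.85 and 0.0282. Per2 (adjusted p = 0.0549) and Nr1d1 (0.0742) were next in the same edgeR test, and Cry1 was last (0.996).

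The intraclass correlation was 0.467 for Ciart, 0.285 for Dbp and 0.146 for Arntl, against a median of 0.00763 over all genes. Over the 15 pairs of regions, the correlation between regions across mice was positive in 15 for Ciart (0.296 to 0.730, median 0.497) and in 15 for Dbp (0.138 to 0.557, median 0.277). For Arntl it was positive in 10 and had a median of 0.148. The Arntl call rested on all mice together, since the adjusted p in edgeR was 0.186 in the 24 h mice alone, 0.0999 in the 30 d mice alone and 0.279 there within sample code sets. Those sets are the first digit of the code in the BLA title of a mouse: 1 or 2 in the 30 d mice and 3 in the 24 h mice. Dbp was called in the 30 d mice (5.31e-07) but not in the 24 h mice alone (0.0847), and Ciart in both (2.85e-13 and 2.46e-07).

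**Figure D2:**
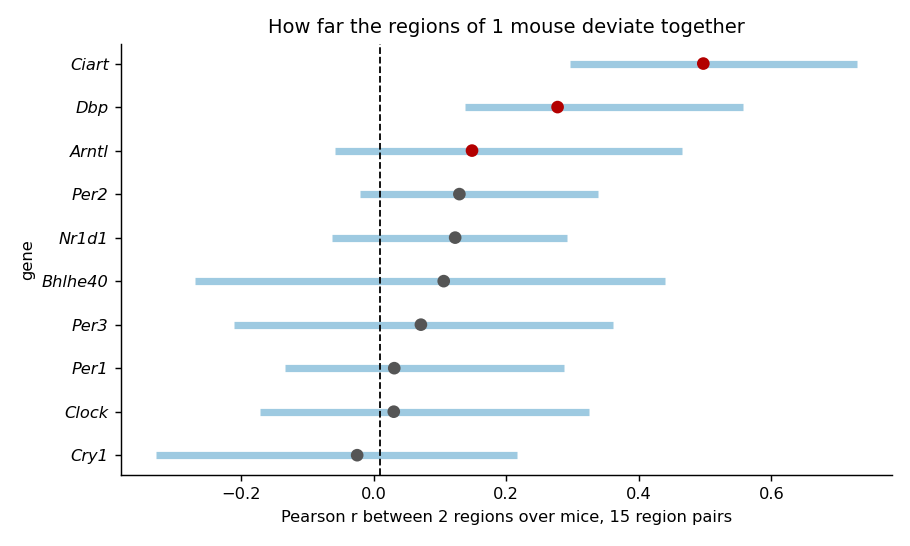
Pearson correlation between 2 regions across mice, for each clock gene (vertical axis), with library values taken as deviations from the region and group mean; light bars run from the lowest to the highest of 15 region pairs and points mark the median, red where edgeR called the mouse terms. Ciart (median 0.497) and Dbp (0.277) lie to the right of the other members and of the dashed line, the median over all genes (0.00914).

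The mice at the ends of the range, picked by their mean over these same regions, show the size of this. Taken as mean deviations from the group, Dbp spanned 2.23-fold between the lowest and highest mouse and Ciart 2.08-fold. The other members ran from 1.15-fold for Clock and 1.18-fold for Cry1 to 1.48-fold for Bhlhe40 and 1.55-fold for Nr1d1. HH mouse 25 had the highest deviation for both Dbp and Ciart. Its Ciart read 29.8 CPM in dStri, 25.1 in PFC, 19.0 in NAc, 14.4 in BLA, 14.3 in VTA and 11.2 in vHPC, where the HH means were 21.1, 15.6, 14.7, 12.2, 11.0 and 8.15. Its Ciart lay above the group mean in every region, which the choice of the mouse by its mean makes likely. SH mouse 19 had the lowest deviation for Ciart, with 9.06 CPM in dStri, 10.3 in PFC, 10.8 in NAc, 7.45 in BLA, 7.02 in VTA and 6.10 in vHPC, and lay below its group mean in all 6. SS mouse 32 had the lowest for Dbp, at 74.1 CPM in dStri, 52.96 in NAc, 35.1 in PFC, 23.0 in BLA, 13.9 in VTA and 7.62 in vHPC. The SS means were 101.3, 74.1, 40.2, 38.9, 30.0 and 22.5 CPM, so the vHPC value was the farthest below on the log2 scale (-1.41).

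Dbp and Ciart had the highest correlation over mice of the 45 pairs of members, all tested after the first results were seen. Over the 51 mice the mean deviations correlated with r = 0.807 and rho = 0.781 (adjusted p = 0.000225 and 0.000150 over the 45 pairs of members, permutation of mice within groups). Without the 2 mice farthest from the median of Dbp r was 0.767, and within sample code sets 1, 2 and 3 it was 0.854, 0.782 and 0.822. The likeness was also there between regions: Dbp in 1 region against Ciart in another gave a positive r in 30 of 30 combinations, with a median of 0.399, and in the same region r ran from 0.313 to 0.585.

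Per1 and Nr1d1 were alike within libraries, with little likeness between regions; this contrast with Dbp and Ciart was not tested. Their mouse means correlated with r = 0.656 and rho = 0.665 (adjusted p = 0.000300 and 0.000150 over 45 pairs, permutation of mice within groups), with 0.644 without the 2 farthest mice and 0.559, 0.600 and 0.775 within the sets. In the same library r was 0.533 to 0.807 over the 6 regions. Between different regions of the mouse the median was 0.0505, and 18 of 30 combinations were positive. Per1 and Per2 (0.501 to 0.762 in the same library, median 0.0144 across regions) were alike in this. Of all 45 pairs, 15 had a positive and 2 a negative r with an adjusted p under 0.05 by permutation. Values of 1 library share its dissection, depth and base composition, which values of different regions of a mouse do not. The part of these in the likeness of any pair was not tested.

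**Figure D3:**
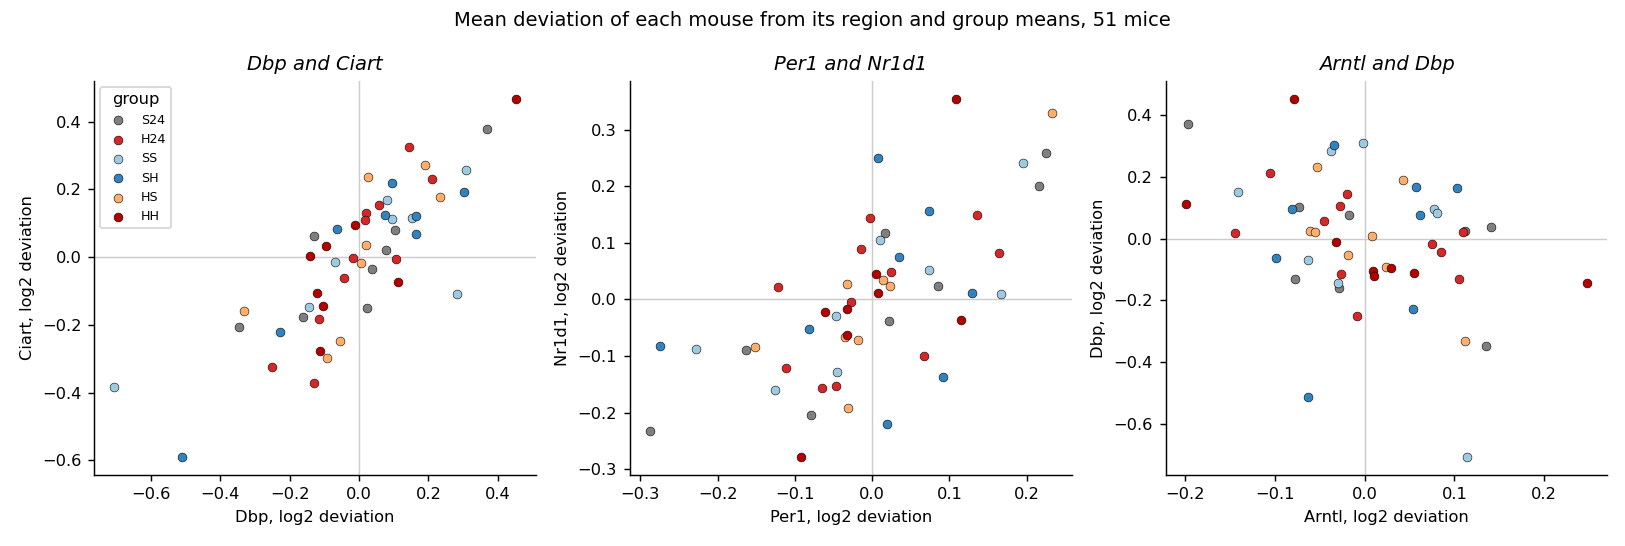
Mean log2 deviation of each of 51 mice from its region and group means, 1 point per mouse, coloured by group: Dbp against Ciart (r = 0.807), Per1 against Nr1d1 (r = 0.656) and Arntl against Dbp (r = -0.371). The first pair follows a line from SS mouse 32 and SH mouse 19 at the lower left to HH mouse 25 at the upper right, and the third falls only loosely.

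Against Arntl, 9 members were tested in a family of their own. Clock rose with Arntl (r = 0.503, adjusted p = 0.00351; rho = 0.431, adjusted p = 0.0274; permutation of mice within groups). Dbp ran against it (r = -0.371, adjusted p = 0.0444; rho = -0.345, adjusted p = 0.0576; permutation). Without HH mice 7 and 21, the 2 farthest from the median of Arntl, r was 0.461 for Clock and -0.361 for Dbp. The sign of the Dbp relation was not shared by the sets: r was 0.0627 in set 1, -0.388 in set 2 and -0.491 in set 3. For Clock the values were 0.283, 0.581 and 0.611. Ciart (r = -0.307, adjusted p = 0.0765 by permutation) and Per2 (r = 0.321, adjusted p = 0.0765) did not pass, and the other 5 members lay between -0.144 and 0.0661.

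Of the 13279 more abundant genes, those nearest in pattern over the 51 mice were named by Pearson r of the same mouse means. For Dbp these were Ciart, Bhlhe41 (0.727), a paralogue of Bhlhe40, Vstm2l (0.689), Rnf145 (0.671) and Tyro3 (0.667), and the most opposite were Ube2b (-0.701) and Tcf12 (-0.638). For Arntl they were Emsy (0.720), Trmt1l (0.694), the heat shock cognate Hspa8 (0.693), Rbm10 (0.667) and Faf2 (0.656), with Haghl (-0.755) and Rcc1l (-0.676) at the other end. The first neighbour was Dhx15 for Clock (0.791), Fry for Per1 (0.783), Fam160b1 for Per2 (0.670), Ryr1 for Per3 (0.643), Chsy1 for Cry1 (0.560), Plekha6 for Nr1d1 (0.788), Dbp for Ciart and Hlf, a relative of Dbp, for Bhlhe40 (0.703). All points share the mice and their libraries.

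Of 21 other clock pathway genes measured in all 6 regions, edgeR called the mouse terms of 2, Nr1d2 (adjusted p = 0.0186) and Nfil3 (0.00101). Nr1d2 encodes the close relative of NR1D1, and Nfil3 a repressor that binds the D-box. Over mice the mean of the 5 astrocyte markers correlated with Ciart at -0.429, with Nr1d1 at -0.414 and with Dbp at -0.403. That of the 4 dopamine neuron markers measured in all regions correlated with Ciart at -0.372. Other members had values of like size. The mean of the oligodendrocyte markers correlated with Per2 at -0.433, Bhlhe40 at -0.399 and Cry1 at -0.383, but with Ciart at 0.226. Fos correlated with Arntl at 0.509 and with Ciart at -0.362, and Sgk1, a glucocorticoid-induced gene, with Ciart at 0.416. The part of these markers and genes in the patterns was not tested.

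The saline control groups of the 2 sampling times differed in 5 of the 10 clock genes. S24 mice had more Dbp, Ciart and Nr1d1 and less Arntl and Per2 than SS mice. This comparison was added after the results were seen. The groups differ in withdrawal time, in the challenge and test session that SS mice went through and in sample code set, and these cannot be told apart. The clock time of tissue collection is not given for either group, so a difference in it cannot be told apart from these either.

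In dStri, Arntl was 42.8 CPM ± 7.76 (SD, n = 8) in S24 with a range of 31.1 to 52.2, and 59.96 ± 8.28 (n = 8) in SS with a range of 43.8 to 70.3. All SS libraries but the lowest lay above the highest of S24. Dbp in BLA was 65.4 ± 13.6 (SD, n = 7) in S24, between 44.5 and 86.1, and 38.9 ± 10.4 (n = 8) in SS, between 23.0 and 52.8. Ciart in dStri was 31.7 ± 4.02 (SD, n = 8) in S24, between 25.8 and 38.6, and 22.5 ± 4.45 (n = 8) in SS, between 14.6 and 28.6. Nr1d1 in dStri was 43.0 ± 7.40 (SD, n = 8) against 29.2 ± 5.15, and its lowest S24 library (34.8) stood below the highest SS library (38.3). Per2 in PFC was 55.7 ± 5.40 (SD, n = 8) in S24, from 48.5 to 64.8, and 75.9 ± 9.81 in SS, from 62.3 to 92.4. All of these ranges overlapped at their ends. The regions were not alike in this: Nr1d1 in vHPC was 29.2 ± 7.32 (SD, n = 8) in S24 and 30.3 ± 4.30 in SS. Arntl was closer in BLA than in dStri, at 36.1 ± 4.33 (SD, n = 7) in S24 and 38.7 ± 4.40 (n = 8) in SS. It was also closer in vHPC, at 27.4 ± 3.35 (SD, n = 8) in S24 and 29.8 ± 4.31 (n = 8) in SS.

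Averaged over the regions of a mouse, limma called 5 of the 10 members between S24 and SS, against 12.2% of 18576 genes (2272). The log2 difference, S24 minus SS, was 0.59 ± 0.115 (SE) for Dbp (adjusted p = 0.00198), 0.47 ± 0.0869 for Ciart (0.00114) and 0.35 ± 0.0687 for Nr1d1 (0.00196). It was -0.25 ± 0.0484 for Arntl (limma, adjusted p = 0.00188) and -0.32 ± 0.0609 for Per2 (0.00146). Clock (-0.08, adjusted p = 0.0774), Cry1 (-0.07, 0.135), Bhlhe40 (-0.06, 0.478), Per3 (0.06, 0.498) and Per1 (-0.02, 0.870) did not pass in limma. Each of the 5 calls held in all 16 fits that left out 1 mouse. Against the 3 SS mice of set 1 alone 2 members passed, Dbp (0.47) and Per2 (-0.36), and against the 5 of set 2 the full 5, with the signs unchanged.

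Of the 21 other clock genes, 12 were higher and 9 lower in S24. Limma called 4 lower and 0 higher, where 12.2% of all genes were called. The 4 were Nfil3 (-0.62 ± 0.0833, limma, adjusted p = 4.28e-05), Wee1 (-0.22), Noct (-0.16) and Csnk1e (-0.09). Wee1 is a cell cycle kinase gene with E-boxes, Noct encodes nocturnin and Csnk1e a kinase of the PER proteins. Genes outside the loop differed too. Fos, which marks neuronal activity, was lower in S24 by a log2 of -0.85 ± 0.123 (limma, adjusted p = 9.38e-05), and the glucocorticoid-induced genes Tsc22d3 (-1.01), Sgk1 (-1.01) and Fkbp5 (-0.46) were lower as well. The 5 blood markers were all higher in S24, with a median of 0.61, and all were called. The 5 excitatory neuron markers were also higher (median 0.34, 1 called), the 3 choroid plexus markers lower (median -0.27, 0 called), and of the 5 microglia markers 2 were called higher and 1 lower. Of the other lists, striatal projection neurons, oligodendrocytes and meningeal fibroblasts had 1 marker called higher each, endothelial cells 1 higher and 1 lower, and astrocytes and dopamine neurons 0. The part of these differences in those of the clock genes was not tested.

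**Figure D4:**
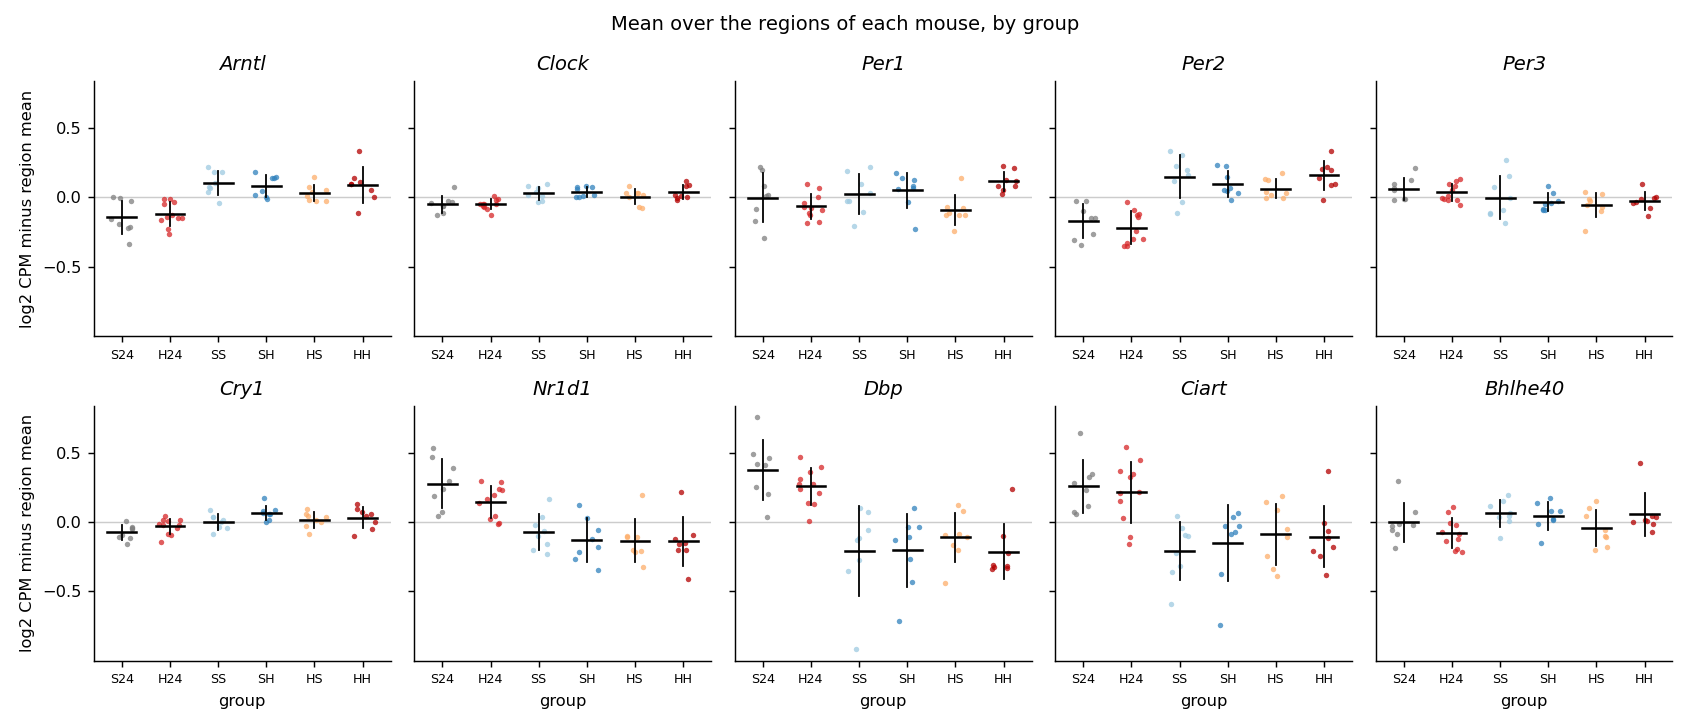
Mean over the regions of each mouse of log2 CPM minus the mean of its region (vertical axis) for the 10 clock genes in 6 groups (horizontal axis), 1 point per mouse with group mean and SD. The means of S24 and H24 lie above those of the 30 d groups for Dbp, Ciart and Nr1d1 and below them for Arntl and Per2. Single mice of 24 h and of 30 d overlap for each of these genes, and the 4 groups of 30 d overlap for every gene.

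Heroin at 24 h of withdrawal left no clock gene past the threshold. None of the 10 members was called between H24 and S24 in any region by edgeR, where 0% of all genes were called in each of the 6 regions. At an unadjusted p under 0.05, 1 member-region difference was higher and 3 lower of 60, beside 2951 higher and 2524 lower of 110940 over all genes, a share close to that of the members. The strongest 2 were both in NAc. Nr1d1 there ran from 21.0 to 41.1 CPM in H24 (median 28.0, n = 11) and from 28.2 to 42.8 in S24 (median 35.8, n = 8), and 1 of 11 H24 libraries exceeded the S24 mean. The log2 difference was -0.31 ± 0.105 (edgeR, adjusted p = 0.445). Per1 in NAc ran from 71.7 to 138.7 CPM in H24 (median 101.5) and from 95.9 to 143.7 in S24 (median 125), a log2 difference of -0.25 ± 0.0946 (adjusted p = 0.538), again with 1 of 11 above. In those libraries all 5 markers of excitatory neurons of cortex and hippocampus were lower in H24, with a median log2 of -2.22 and 0 called. All 5 blood markers (median 0.395), all 5 of microglia (0.10) and all 4 of endothelial cells (0.13) were higher, with 0 called. Each other marker list went both ways, with 0 called. The part of these shifts in the 2 differences was not tested.

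Over the regions together the median log2 difference of the 60 tests was -0.04 for the members and 0.00 for all genes. Mouse means gave the same picture in limma, with 0 members called (0% of all genes) and a range from -0.13 ± 0.0600 for Nr1d1 (adjusted p = 0.780) to 0.04. No member passed the test of a treatment difference that varies between regions (edgeR, 0.0161% of genes called); Arntl had the smallest adjusted p, 0.773, at an unadjusted p of 0.0298.

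After 30 d, Bhlhe40 was higher in prefrontal cortex after the heroin challenge, while Per1 and Per2 did not pass. Bhlhe40 was the only called member in 420 member-region tests of 7 contrasts in edgeR. Its log2 difference between the 16 heroin-challenged mice (SH and HH) and the 16 saline-challenged mice (SS and HS) was 0.22 ± 0.0472 (adjusted p = 0.0202), where 0.235% of 19976 genes were called (47). The PFC values of Bhlhe40 in SS ran from 150.6 to 199 CPM with a median of 166, and in HS from 142.5 to 193 with a median of 176. SH libraries ran from 167 to 220 CPM (median 187) and HH libraries from 175 to 242.3 (median 207). The groups overlapped, yet 14 of 16 heroin-challenged libraries lay above the median of the saline-challenged ones, 8 lay above all of those, and 7 saline-challenged libraries lay below every heroin-challenged one.

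Per1 in PFC, the member best known as an immediate target of neuronal activity, had a log2 difference of 0.27 ± 0.0640 that missed the threshold (edgeR, adjusted p = 0.0555). Its values ran from 72.9 to 105.02 CPM in SS (median 88.6), 70.6 to 97.3 in HS (85.8), 73.0 to 123.5 in SH (104.9) and 89.9 to 123.3 in HH (113.1). Here 9 of 16 heroin-challenged libraries exceeded all saline-challenged ones. Per2 was 62.3 to 92.4 CPM in SS (median 77.9), 53.3 to 79.8 in HS (72.9), 75.8 to 99.4 in SH (81.7) and 72.1 to 97.1 in HH (81.99), a difference of 0.18 ± 0.0526 (edgeR, adjusted p = 0.162). The other 7 members had smaller differences in PFC and none passed.

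**Figure D5:**
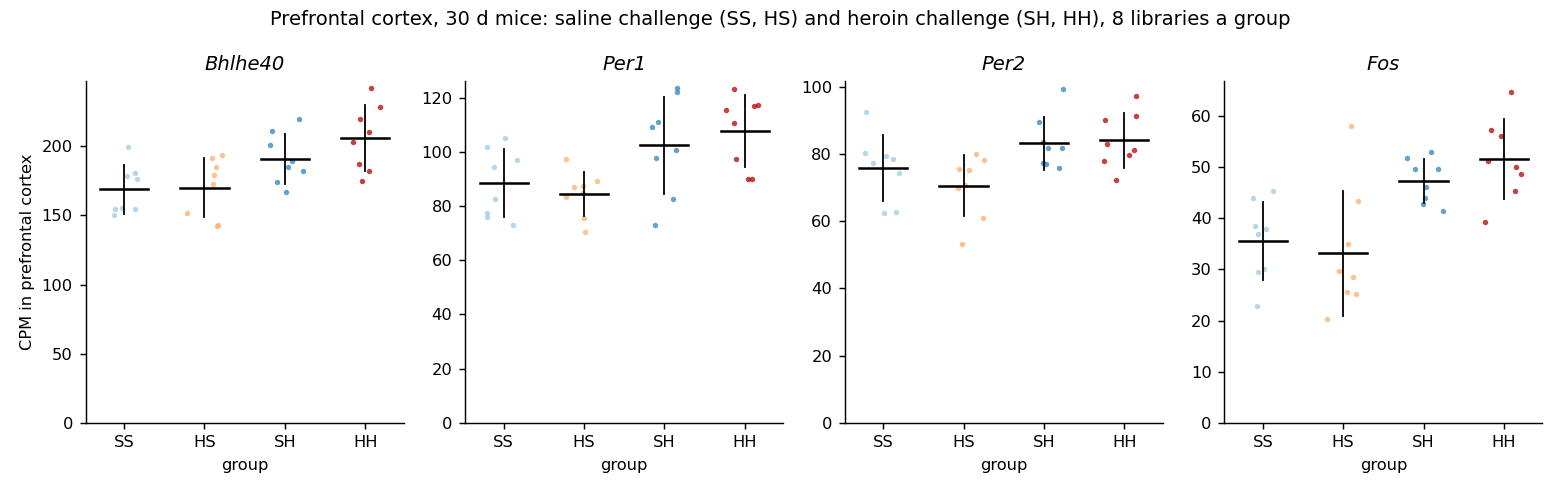
CPM in prefrontal cortex (vertical axes, each from 0) of Bhlhe40, Per1, Per2 and Fos in the 4 groups of 30 d (horizontal axes), 8 libraries per group, with mean and SD. SH and HH, which received heroin, lie higher on average than SS and HS for each gene, with overlap; for Bhlhe40 8 of 16 heroin-challenged libraries exceed all saline-challenged ones.

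The direction held within both sample code sets. In set 1 the mean log2 difference, 10 heroin-challenged against 9 saline-challenged mice, was 0.26 for Bhlhe40, 0.25 for Per1 and 0.22 for Per2, and in set 2, with 6 against 7, it was 0.20, 0.30 and 0.17. Leaving out each of the 32 PFC libraries in turn kept Bhlhe40 called in all 32 edgeR fits (adjusted p from 0.00906 to 0.0477, log2 from 0.20 to 0.25). Per1 passed in 18 of those 32 fits (adjusted p from 0.00690 to 0.113), in DESeq2 (0.0118) and with no filter on low counts (edgeR, 0.0258), but not with RLE size factors (0.0611) or the sample code set as a covariate (0.0505). Per2 passed in 0 of the 32 fits (edgeR, adjusted p from 0.0733 to 0.310) and in none of those 4 settings (0.0771 to 0.173). Fos in the same libraries was higher by 0.52 ± 0.0983 (edgeR, adjusted p = 0.00541), and 16 of 16 heroin-challenged libraries exceeded the saline-challenged median.

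No glucocorticoid-induced gene passed: the log2 difference in PFC was -0.23 ± 0.0842 for Sgk1 (edgeR, adjusted p = 0.382), -0.01 for Fkbp5 and 0.00 for Tsc22d3. Cell type markers had differences of their own. All 5 oligodendrocyte markers were lower after heroin (median -0.43, 0 called; summed 997 to 2687 CPM against 1024 to 3107), as were all 5 of meningeal fibroblasts (median -0.80, 2 called; 18.8 to 40.4 against 27.7 to 56.9). Every marker was also lower, with 0 called, for choroid plexus (3, median -0.42), blood (5, -0.20), striatal projection neurons (6, -0.15), endothelial cells (4, -0.13) and microglia (5, -0.07), and 4 of 5 were for astrocytes (-0.04). Of the 5 excitatory neuron markers 4 were higher, with a median of 0.02. Of the 4 dopamine neuron markers tested, 1 was higher and 3 were lower (median -0.09, 0 called). The full list of 5 holds 1 marker with a median of 0 CPM in these libraries. The part of these shifts in the Bhlhe40 difference was not tested.

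Split by history, both heroin-challenged groups were compared with SS, whose libraries these comparisons share. Bhlhe40 in PFC was higher by 0.27 ± 0.0667 in HH (8 of 8 libraries above the SS mean; edgeR, adjusted p = 0.423, 0% of genes called) and by 0.17 ± 0.0667 in SH (7 of 8; adjusted p = 0.721, 0.015% called). Per1 was higher by 0.26 ± 0.0906 in HH (8 of 8; edgeR, adjusted p = 0.908) and by 0.20 ± 0.0906 in SH (6 of 8; adjusted p = 0.861). None passed.

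In the other 5 regions no member was called for the challenge, where edgeR called 0% of all genes in BLA, VTA and vHPC, 0.00506% in NAc and 0.00513% in dStri. Clock (0.10 ± 0.0359, adjusted p = 0.537) and Cry1 (0.11 ± 0.0503, 0.604) in dStri had an unadjusted p under 0.05 in edgeR. No member passed the test of a challenge difference that varies between regions (edgeR, 0.00538% of genes called). In mouse means, where 0.0431% of genes were called by limma, Per1 was higher after heroin by 0.12 ± 0.0380 (95% interval 0.04 to 0.19, adjusted p = 0.545) and no member was called; Fos was called, at 0.46 ± 0.0910 (adjusted p = 0.0349).

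SH against SS in the other regions (0.00506% of genes called in NAc and 0% in BLA, VTA, dStri and vHPC by edgeR), HS and HH against SS, heroin against saline history and the interaction of history and challenge (0% in every region) called no member. The same holds for their mouse means in limma, with 0% of genes called. By history the largest member differences at an unadjusted p under 0.05 were 0.20 ± 0.0855 for Ciart in BLA (edgeR, adjusted p = 0.837) and -0.16 ± 0.0653 for Arntl in vHPC (0.619). The largest interaction was Per1 in VTA, at 0.42 ± 0.161 (edgeR, adjusted p = 0.854). Of the other clock genes, 0 were called in any contrast and region.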

How the data were processed

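RNA counts of 6 brain regions from 51 mice were analysed. HISAT2, SAMtools and HTSeq were used with build mm10, per the submitters' processing notes; versions, settings and annotation release are not given in the sources used here. The authors deposited raw read counts per Ensembl gene in 1 table, and 0 of its value columns lacked a sample. Symbols came from GENCODE M21 (GRCm38), which matched 52489 of 52636 genes. The members and gene lists were chosen with earlier results of these data known. The named neighbours were the 5 genes with the highest and 2 with the lowest r for Dbp and Arntl, and the single highest for the others.

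In R 4.3.3, counts were filtered in edgeR 4.0.16 (minimum count 10), scaled by TMM and fitted by quasi-likelihood per region, with 24 h and 30 d mice apart. CPM use TMM factors. Mouse means are log2 CPM (prior count 1), centred per region, tested in limma 3.58.1. The p-values were adjusted over all genes by Benjamini-Hochberg. Correlations used 100000 permutations. DESeq2 1.42.0 and other scalings, filters and sample subsets were alternatives. Scripts were tested on simulated data. The labels number mice across regions, so regions of a mouse are paired and were blocked in an alternative. With nothing said of housing or litters, p-values of the group comparisons measure the spread between these mice. The test of the mouse terms sets mice against the spread between libraries of a mouse. The main fit of region differences has no term for the mouse, so its p-values measure the spread between libraries.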

Additional observations from a re-analysis of the deposited data

Results flagged for a closer look

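In 300 groups of 7 or 8 libraries (1 member, region and treatment group each), the highest or lowest library was set against the others by Dixon's criterion. Of these, 29 groups held 1 library past it, from 24 libraries. The H24 groups, with 11 libraries each, exceeded the largest size of 10 set for this criterion and were not screened. Chance marks about 1 group in 20.

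HH mouse 25 stood above its group for Dbp in PFC (60.7 CPM, next 43.1) and vHPC (31.0, next 22.1), for Per2 in vHPC (64.5, next 48.6) and for Bhlhe40 in vHPC (131.13 CPM, next 87.5). SH mouse 19 was lowest for Ciart in dStri (9.06 CPM, next 21.3) and highest for Arntl in PFC (55.2, next 41.7). SS mouse 32 was lowest for Dbp in VTA (13.9 CPM, next 28.9) and highest for Clock in NAc (176). HS mouse 14 was highest for Nr1d1 in BLA (44.2 CPM) and vHPC (46.8) and for Bhlhe40 in vHPC (111.5), and lowest for Clock in PFC (131.4).

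Per1 and Nr1d1 stood out in the same library in 2 cases: VTA of HS mouse 2 (54.3 and 24.6 CPM, next 40.7 and 12.9) and vHPC of SH mouse 24 (110.4 and 46.5, next 78.5 and 29.2). S24 mouse 46 was highest for Per3 in vHPC (61.98 CPM, next 42.0) and BLA (62.98, next 49.4).

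The other highest libraries were Per2 in NAc of HH mouse 7 (109.9 CPM), Per3 in PFC of HS mouse 12 (73.7) and in BLA of HS mouse 11 (55.3), Cry1 in VTA of HS mouse 3 (24.1) and HH mouse 16 (22.9), Nr1d1 in BLA of S24 mouse 41 (60.2) and Bhlhe40 in NAc of S24 mouse 37 (66.7). The other lowest libraries were Per1 in BLA of SS mouse 22 (48.1 CPM), Per2 in dStri of HH mouse 9 (76.1), Dbp in VTA of HS mouse 12 (17.2) and Bhlhe40 in dStri of SH mouse 30 (37.3).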

How the results depend on the processing

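Alternatives changed the scaling, the filter, the tool, the prior count, the libraries kept and the mice kept. Leaving out 1 PFC library at a time, the S24 against SS comparison and the 45 pairs were chosen after seeing the data. For the challenge, 2 members instead of 1 were called with no filter and 2 in DESeq2, Per1 being added. With the mouse as a replicate block, 56 of 60 region differences passed instead of 57, and no other region call changed with the block. In libraries of the saline groups S24 and SS alone, fewer passed in 3 regions. These were 7 members instead of 10 in BLA, 8 instead of 10 in PFC and 8 instead of 9 in vHPC. The counts in NAc, VTA and dStri stayed the same. The correlation of Clock with Arntl did not pass within code set 1 (0.283) or 2 (0.581). That of Dbp with Arntl did not pass with RLE size factors (-0.359) or within set 2 (-0.388) or 3 (-0.491), and had the opposite sign in set 1 (0.0627). Within sets there were 13 to 19 mice; otherwise the cause was not tested. S24 against SS mice of set 1 called 2 members instead of 5, with 3 SS mice. Leaving out single mice left 0 members called in each treatment contrast of mouse means and 5 to 6 between S24 and SS, and Bhlhe40 in PFC stayed called in 32 of 32 fits. With 7 to 11 mice a group, these p-values can miss small differences.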
